A study of Homo sapiens with 2 samples.

Results

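The regions described here were peaks of chromatin immunoprecipitation with sequencing that both GFI1 antibodies marked at the ends of protein-coding genes in NB4 cells. NB4 is a human acute promyelocytic leukemia line with the PML-RARA fusion gene. There was 1 library with GFI1 antibody ab21061 and 1 with GFI1 antibody sc8558, both from NB4 cells fixed in 1% formaldehyde for 10 min, and the labels name no drug, gene edit or time point for either. Per the series' design text the antibodies recognise different portions of GFI1. A member was an ab21061 peak that overlapped an sc8558 peak by at least 1 bp and whose midpoint lay within 1 kb of either end of a protein-coding gene in RefSeq (hg38). Of 7687 ab21061 peaks, 4896 were overlapped by 1 or more of the 7562 sc8558 peaks, and 422 of these were members. The extraction text names antibodies to the PML/RARα fusion protein and 1 title gives GFI2 for the sc8558 library. Neither matches the antibody labels, which were followed here. The NB4 identity could not be checked against marker expression from peak lists. No control library was analysed here and sequencing depth is unknown. Whether the antibodies were used on chromatin of the same culture is not stated in the labels. With 1 library for each antibody no test was made, and the intervals given are exact Clopper-Pearson 95% intervals, which cover counting error only.

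GFI1 is a zinc-finger repressor of transcription. Its zinc fingers recognise DNA containing the letters AATC, and its SNAG domain recruits LSD1 with CoREST and histone deacetylases. In the bone marrow it is known for favouring neutrophil over monocyte development and for binding to its own gene.

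The GFI1 sequence was found in promoters at the shared regions more often than in promoters at large. RefSeq promoter sequence (GRCh38.p14, 250 bases before to 50 after the start) was matched by gene ID to 283 of the 320 genes with a member at their start, and to 13902 protein-coding genes in all. The letters AATCACNGC, a 9-letter GFI1 motif searched on both strands with N for any base, stood in 14 of the 283 (4.95%, 2.73 to 8.16), against a background of 1.11% of all promoters, a ratio of 4.47. The matches fell at 12 distinct places, since CCDC191 and QTRT2 share 1 place and SEPTIN10 and SOWAHC another. They are shown because they are the GFI1 motif matches in the promoters of genes with a member at their start. Each is written 5′ to 3′ on the strand that reads AATCACNGC, with the motif in capitals, in the order of the peaks' ranks.
CCDC191 and QTRT2: tctgccccaaAATCACTGCctccagtgca
FUT7: gtgcccctgaAATCACAGCtacgccctag
KIF1B: ggctgtgaccAATCACAGCacagagctcg
RNFT2: acaattcagcAATCACAGCcgcatcattc
SEPTIN10 and SOWAHC: cgagggccgcAATCACTGCtccgcagttc
SIRPB2: tgactacaggAATCACAGCccagacacaa
ATP5F1E: cggacctgccAATCACCGCctcctacccg
NCAPD2: gcggccggccAATCACAGCgccgcccggg
ELAC1: agggaaactcAATCACTGCcctcgcggcc
ACVR1: ctgcctggttAATCACAGCtccagacact
TIMELESS: tcgatctaaaAATCACAGCgctatgaatt
MOCS2: agcgggaccgAATCACGGCcgcaaaggcg
Position 7 of the motif, which may be any base, held A at 7 places, T at 3, C at 1 and G at 1. The first place, chr3:114056756-114056784 (minus strand), lay 33 bases past the start of QTRT2, a subunit of the enzyme that puts queuine into tRNA, and at -157 bases from the start of CCDC191, a coiled-coil protein gene on the other strand. The FUT7 place was at chr9:137032057-137032085 (plus strand), just after the start of that gene, whose fucosyltransferase makes selectin ligands on leukocytes. The KIF1B place was at chr1:10210428-10210456 (minus strand), before a kinesin gene. The ACVR1 place, chr2:157876397-157876425 (minus strand), preceded a bone morphogenetic protein receptor gene, and the TIMELESS place, chr12:56449530-56449558 (plus strand), a replication fork protein gene. ELAC1, a tRNA-processing enzyme gene, had its place at chr18:50967885-50967913 (plus strand).

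Most of the 12 places lay within the peaks, which follows in part from the choice of promoters. These were taken for a peak near their start, and 174 of the 283 starts lay inside the peak. How often other letters of these promoters lay in the peak was not counted, so the positions are a description. Of the 12, 10 were inside the ab21061 peak and 8 were within 300 bp of its midpoint. The distance to the midpoint ran from 11 bp at ELAC1 and 17 bp at ACVR1 to 763.5 bp at KIF1B, with a median of 199 bp. The places at ATP5F1E, a subunit gene of the mitochondrial ATP synthase, and MOCS2, a molybdopterin synthase gene, lay outside the peak.

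The share was also taken over the promoters whose start the peak covered. Among 174 promoters whose start lay inside the member peak, 12 held AATCACNGC (6.90%, 3.61 to 11.7). The place shared by CCDC191 and QTRT2 and that shared by SEPTIN10 and SOWAHC each count for 2 genes, here and in the 283. The intervals treat these genes as separate. Of 90 promoters whose start had an ab21061 peak without an sc8558 overlap nearby, 1 held it (1.11%, 0.0281 to 6.04), and of 120 with an sc8558 peak without overlap, 2 did (1.67%, 0.202 to 5.89). These intervals overlap with that of the 283, so the data do not show that shared and single-antibody starts differ in this motif. The 174 are part of the 283 and their intervals overlap too. The shorter form AATCAC stood in 43 of 283 (15.2%, 11.2 to 19.9) and in 35 of 174 (20.1%, 14.4 to 26.8), against a background of 8.75%. The 4 letters AATC alone stood in 75.3% of the 283 and 80.5% of the 174, against 65.7% of all promoters. The longer forms contain the shorter ones, so the 3 counts are not separate.

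Of the other 19 motifs searched, few differed from the background by more than counting error. The ETS motif CCGGAAG was in 58 of 283 promoters (20.5%, 15.9 to 25.7) against 14.6% of all, and the ETS form GGAAGT, which can overlap it, in 31.1% (25.7 to 36.8) against 25.0%. ETS factors include PU.1, FLI1 and ELF1, which act in blood cells. The C/EBP motif TTGCNNAA was in 11.3% (7.86 to 15.6) against 8.42%, so the background was inside the interval, but where the start lay in the peak it was in 13.8% (9.04 to 19.8). For the remaining 16 motifs the background share was inside the interval over the 283 promoters. RUNX factors, regulators of blood development, have the motif TGTGGT, which stood in 8.83% of member promoters and 10.9% of all. The AP-1 motif TGANTCA, to which FOS and JUN proteins bind, stood in 6.01% of member promoters and 5.75% of all. For the GATA motif AGATAA the share among members was 7.07% and the background 7.69%. For MYB the letters searched were CNGTTG, with 32.5% among member promoters and 32.8% in all. The MYC motif CACGTG was found in 10.2% of member promoters, beside 8.98% in all. Retinoic acid receptors and other nuclear receptors recognise the half-site AGGTCA, found in 11.7% of member promoters and 11.8% of all. The CREB and ATF motif TGACGTCA had shares of 1.41% among members and 2.70% in all. General promoter motifs were also near the background: GGGCGG of SP and KLF factors stood in 61.5% of member promoters against 58.5% of all. The NF-Y letters CCAAT were in 42.0% of member promoters and 37.1% of all, and the TBP letters TATAAA, for the TATA box, in 11.3% and 10.0%. YY1, searched as AAGATGG, had 8.83% among members and 6.69% in all. CTCF, searched as AGGGGGC, had 19.4% and 17.5%, and STAT factors, searched as TTCNNNGAA, had 6.01% and 6.98%. The NRF1, IRF and NF-kB motifs had 11.3%, 3.53% and 1.06% among member promoters, against 8.86%, 3.17% and 0.561% in all. A match is a description of letters in the promoter and not a measured binding site.

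**Figure D1:**
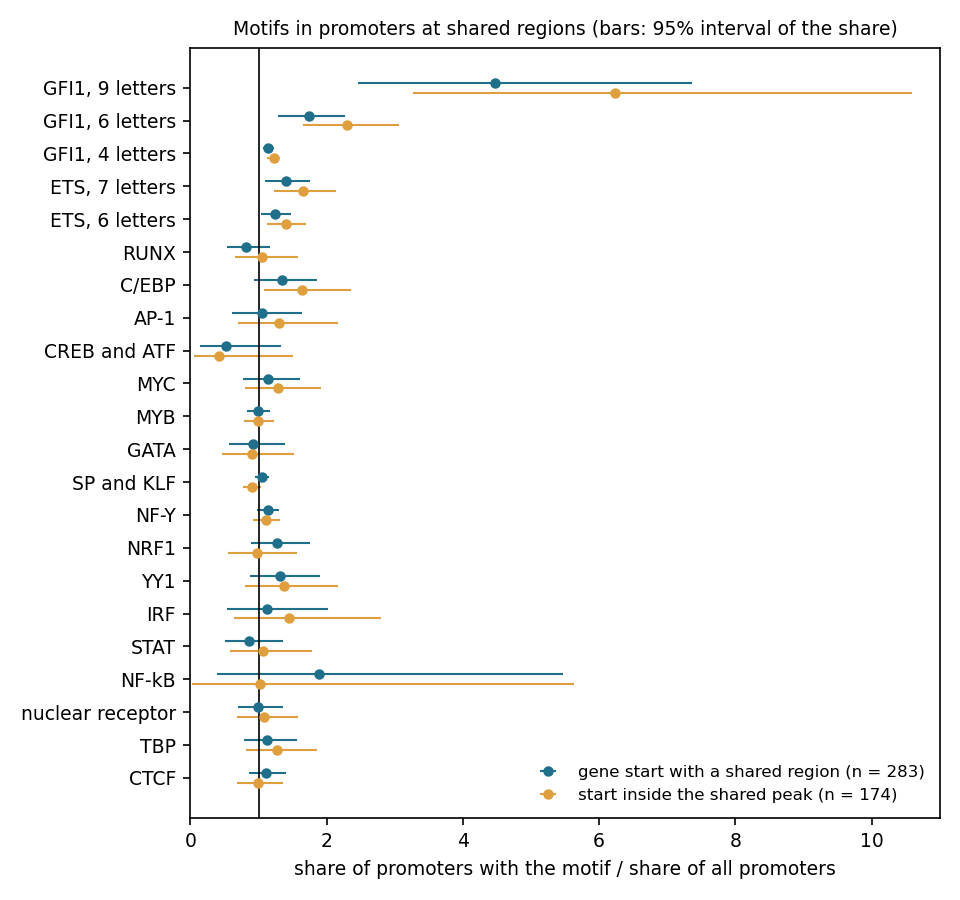
Share of promoters with each motif divided by its share among all 13902 promoters (x axis, ratio), for 283 gene starts with a shared region and for the 174 whose start lay inside the peak; points are ratios and bars the 95% interval of the share. The 9-letter GFI1 motif lies farthest to the right, at 4.47 and 6.23.

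The promoters at shared regions were rich in CpG. An observed-to-expected CpG ratio above 0.6 was found in 80.2% (75.1 to 84.7) of the 283 promoters and in 66.4% of all. It was 78.9% (69.0 to 86.8) at starts with an ab21061 peak without overlap, and 96 of 120 starts with an sc8558 peak without overlap were CpG-rich, so starts near any peak were much alike. The part of CpG content in the motif shares was not tested. The median GC content was 63.3% against 62.7% in all promoters.

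Shared regions lay at gene starts far more often than at gene finishes. RefSeq promoters gave the strand of 15843 of 20037 genes. Among these genes, 320 starts had a member within 1 kb (2.02% of all starts, 1.81 to 2.25) and 55 finishes did (0.347%, 0.262 to 0.452). Starts were thus 85.3% (81.3 to 88.8) of the 375 ends reached. Around ab21061 peaks without overlap the start share was 73.2% (65.2 to 80.3), with 104 starts and 38 finishes. By region, 297 members had a start within 1 kb, 48 had a finish and no start, and 77 lay only at genes whose strand was not in the table. Of those 48, 1 had another annotated start of any gene in the promoter table within 1 kb.

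Around starts the midpoints fell more often upstream than downstream. Of 323 pairs of a member and a start, 189 had the midpoint upstream and 134 downstream, with a median of -130 bp. In steps of 200 bp the highest count, 49, was from -400 to -200 bp, and the counts past the start ran from 23 to 30. The start itself was inside the ab21061 peak in 200 pairs. Around finishes no position stood out: 23 midpoints lay on the gene side, 32 past the finish, and 28 of 55 finishes were inside the peak.

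**Figure D2:**
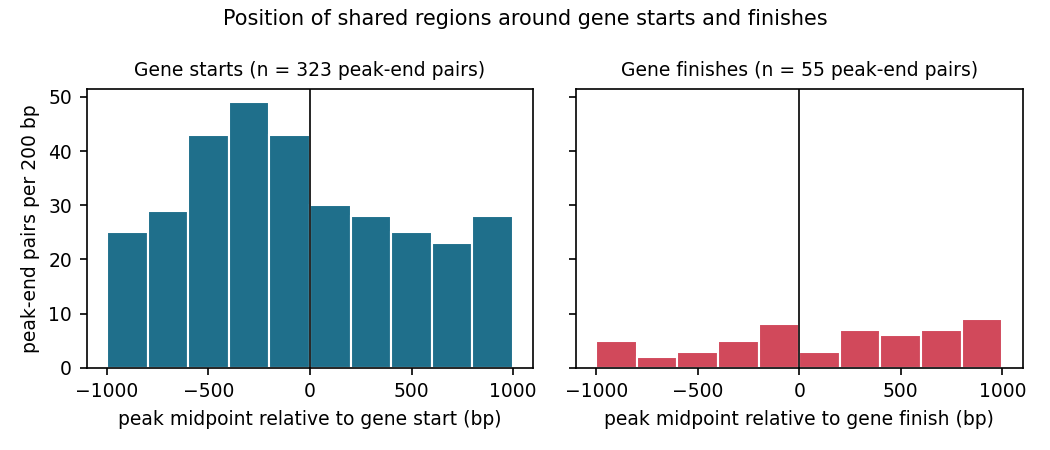
Position of the midpoint of each shared ab21061 peak relative to a gene start (left, 323 pairs) or finish (right, 55 pairs), in bp along the direction of transcription, as counts per 200 bp. The highest bar at starts, 49, lies from -400 to -200 bp.

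In 24 members the starts of neighbouring genes on opposite strands both lay within 1 kb. CCDC191 with QTRT2, and NAA16, an N-terminal acetyltransferase subunit gene, with MTRF1, a mitochondrial translation release factor gene, had the highest ranks among them. MCM3AP with YBEY, MAP2K1 with TIPIN, and CHEK2 with HSCB were others. MAP2K1 encodes the kinase MEK1, TIPIN a partner of TIMELESS at the replication fork and CHEK2 a checkpoint kinase. Peaks over such pairs cannot be given to either gene, and 48 of the 422 members reached more than 1 gene (47 reached 2 genes and 1 reached 3).

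The peak score is the authors' value, which in this peak caller grows as the p-value of the peak falls. It is used here within each list only, and high scores also follow from the choice of peaks found by both antibodies. Member scores ran from 50.06 to 2475.31 with ab21061 (median 114) and from 50.07 to 2645.11 with sc8558 (median 117). Both scores were 100 or more in 196 members, and both were under 100 in 119. Shared peaks 1 to 10 kb from gene ends had medians of 110 and 108, and those over 100 kb away 102 and 98.5. Members were wider, with medians of 980.5 and 960 bp against 897 and 854 bp at 1 to 10 kb and 726 and 707.5 bp beyond 100 kb. Across the 422 members the 2 scores had a Spearman rank correlation of 0.748 and the widths of 0.620. These are descriptions across regions of the same cell line, in which both antibodies meet the same local sequence and chromatin. In 324 members the 2 ranks were within a factor of 2, and the midpoints of the overlapping peaks were a median of 81.5 bp apart.

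**Figure D3:**
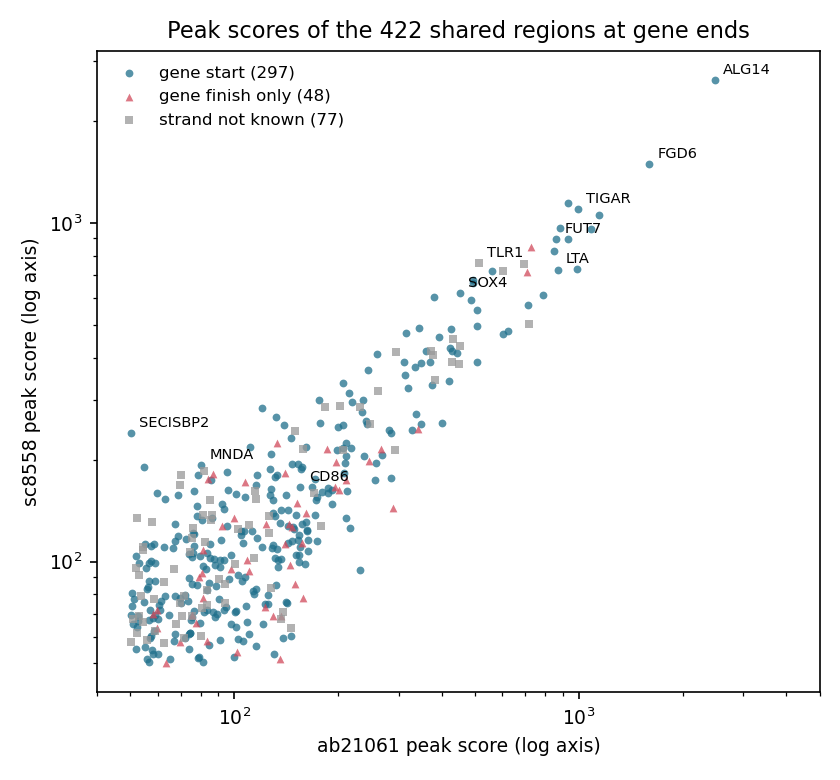
Scores of the 422 shared regions with ab21061 (x axis) and sc8558 (y axis), both on log axes; each point is a region, marked by whether it reached a gene start, only a finish or only genes of unknown strand. ALG14, at 2475.31 and 2645.11, is highest on both axes.

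The 10 best-ranked members all lay at gene starts. The region at ALG14, chr1:95072001-95073472, ranked 3 in both lists with scores of 2475.31 and 2645.11, and its midpoint lay 215 bp inside the gene, which encodes a subunit of an early N-glycosylation enzyme. The FGD6 region, chr12:95215734-95217708, ranked 11 in both, at 1601.03 and 1489.87. FGD6 encodes a guanine nucleotide exchange factor. The region at QTRT2 and CCDC191, chr3:114056301-114057562, scored 1143.76 and 1054.16, and that at NAA16 and MTRF1, chr13:41310515-41311892, 1084.21 and 961.03. The TIGAR region, chr12:4320200-4322078, scored 995.41 and 1100.43. TIGAR is a p53-induced regulator of glycolysis. MBNL1, a splicing regulator gene, had a region at chr3:152242514-152244770 with scores of 928.08 and 1144.75, centred 9.5 bp from the gene's outer start. ANKRD22 (929.9 and 898.15), MPV17L2, a mitochondrial ribosome assembly factor gene (880.74 and 966.17), FUT7 (861.15 and 894.49) and TMEM33, which encodes a membrane protein of the endoplasmic reticulum (848.6 and 825.26), completed the 10. Both ranks entered the choice of these 10, so their high place in both lists is given as a description.

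The 250 bases before the start are printed for ALG14, as the best-ranked region, and for CCDC191 and TIGAR, the 2 of 8 such stretches read that held AATCAC on either strand (in capitals). They run 5′ to 3′ towards the gene, ALG14 from chr1:95072952-95073201 (minus strand), CCDC191 from chr3:114056614-114056863 (minus strand) and TIGAR from chr12:4320963-4321212 (plus strand).
ALG14: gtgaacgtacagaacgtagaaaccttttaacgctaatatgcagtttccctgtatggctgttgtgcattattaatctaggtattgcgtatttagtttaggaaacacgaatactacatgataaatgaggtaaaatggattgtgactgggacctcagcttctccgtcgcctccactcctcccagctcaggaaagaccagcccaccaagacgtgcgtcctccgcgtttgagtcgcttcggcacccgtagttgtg
CCDC191: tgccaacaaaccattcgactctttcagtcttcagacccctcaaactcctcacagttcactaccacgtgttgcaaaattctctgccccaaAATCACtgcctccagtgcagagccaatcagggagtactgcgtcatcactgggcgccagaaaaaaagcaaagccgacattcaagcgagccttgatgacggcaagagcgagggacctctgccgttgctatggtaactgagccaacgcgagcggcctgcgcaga
TIGAR: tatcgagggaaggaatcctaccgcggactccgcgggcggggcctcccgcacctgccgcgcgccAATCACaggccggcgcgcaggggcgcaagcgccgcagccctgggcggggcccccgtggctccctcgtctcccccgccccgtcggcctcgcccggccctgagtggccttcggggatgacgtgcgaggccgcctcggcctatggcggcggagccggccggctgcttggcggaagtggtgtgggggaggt
The ALG14 stretch, at the member with the highest score, held no AATCAC. The CCDC191 stretch held it within AATCACTGC, and the TIGAR stretch held it outside the longer motif. GC content over the whole 300-base promoter was 49.3% at ALG14, 55.0% at CCDC191 and 78.0% at TIGAR.

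Some members ranked far apart in the 2 lists. With sc8558 ranked higher, SECISBP2, a selenoprotein synthesis factor gene, had scores of 50.06 and 239.42, and DDI2, a protease gene, 54.82 and 189.94. At both, a stronger ab21061 peak met the same sc8558 peak (284.63 at SECISBP2 and 157.28 at DDI2), so 1 wide sc8558 peak stood against 2 ab21061 peaks. USP17L24 (52.39 and 134.69) and MTMR10 (59.54 and 159.77) followed. USP17L24 belongs to a family of near-identical repeated genes, so its reads are of uncertain origin. With ab21061 ranked higher, ANAPC13, a subunit gene of the anaphase-promoting complex, scored 136.22 and 51.57, and EEA1, an early endosome protein gene, 130.56 and 53.34. CTDSPL2 (146.39 and 60.36), ZFYVE16 (138.28 and 59.41) and RFX8 (145.77 and 63.6) were the others.

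Counted by gene, 462 of 20037 protein-coding genes had a member within 1 kb, a background of 2.31%. Of 561 distinct genes on 19 lists of blood, leukemia and control genes, 24 had a member (4.28%, 2.76 to 6.30). The lists were chosen with earlier results of these data known, so the share is a description. Their median scores were 131 and 130, beside 115 and 117 over all 462 genes.

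GFI1 itself had a member at each end. At its start the peak chr1:92485477-92487243 covered the start, with its midpoint 565.5 bp inside the gene and scores of 132.03 and 85.27. At its finish the ab21061 peak chr1:92473564-92474496 scored 107.82. Its midpoint lay 986.5 bp inside the gene, close to the 1 kb limit. The sc8558 peak paired with it, chr1:92473100-92473873, scored 171.31. These peaks, 933 and 774 bp wide, overlapped by only 310 bp, so this region did not meet the 50% overlap setting. Their midpoints were 543.5 bp apart, against a median of 81.5 bp over all members. The GFI1 promoter window held AATC but not AATCAC. GFI1B, the paralog, had no member. Of 30 reported GFI1 targets, GFI1 and SPRED1, an inhibitor of RAS signaling (95.16 and 127.08), had one (6.67%, 0.818 to 22.1).

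Among 51 blood transcription factor genes 4 had a member (7.84%, 2.18 to 18.9). For 3 of the 4 the best-ranked region was at the finish. ZEB2, a zinc-finger repressor gene, scored 211.09 and 174.3 at 680.5 bp past its finish. KLF2, a Krüppel-like factor gene, scored 146.8 and 126.52 at 91.5 bp before its finish. GFI1 has been described, and ID3, an inhibitor of helix-loop-helix factors, scored 57.36 and 100.32 at 401.5 bp before its start. Of 32 AP-1 and immediate early genes 2 had a member (6.25%, 0.766 to 20.8, against a background of 2.31%). These were FOS (123.27 and 73.24), at 924 bp past its finish, and ZFP36L2 (75.58 and 68.99), whose product binds mRNA for decay.

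Monocyte and macrophage genes had the highest share of the lists with over 20 genes, 5 of 32 (15.6%, 5.28 to 32.8). The list is named as the highest of many, and all were chosen with earlier results of these data known. Its interval is therefore a description and not a test against the background. For the 4 genes of known strand the regions were centred close to the start. CD86, a costimulatory ligand gene, scored 155.64 and 165.66 with the midpoint 9.5 bp from its start, at chr3:122054842-122055902. CCR2, a chemokine receptor gene, scored 96.16 and 162.85 at 67.5 bp. CD163, a scavenger receptor gene, scored 76.51 and 161.03 at 102 bp, and its promoter held AATCAC. MNDA, a nuclear antigen gene of myeloid cells, scored 80.22 and 192.56 at 132.5 bp. LYZ, the lysozyme gene, scored 138.89 and 71.07. In CCR2, CD163, MNDA and CD86 the sc8558 rank was better than the ab21061 rank, and in LYZ the ab21061 rank was. CD86 alone had both scores at 100 or more, a level reached at 1.09% of all protein-coding genes. The list's median scores were 96.2 and 163.

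The immune groups that follow had 1 to 3 genes each. Their shares ran from 2.35% to 7.89%, and each interval included the background of 2.31%. Of 34 neutrophil granule and S100 genes S100A12 alone had a member (155.07 and 110.07), 91 bp before its start, and its promoter held AATCAC. Of 46 cytokine receptor and signaling genes, those of both interferon-gamma receptor chains did, IFNGR1 (153.89 and 99.62) and IFNGR2 (74.59 and 61.64). Of 45 cytokine, chemokine and chemoattractant receptor genes 3 did. LTA, the lymphotoxin gene, was among the strongest of all members at 867.63 and 728.43. Its region was centred 734.5 bp before the outer start of an annotated span of 13715 bp, which need not be the start in use. CXCR4, the CXCL12 receptor gene, scored 145.28 and 98 at 908.5 bp past its finish, and CCR2 was the third. Of 38 innate sensing and NF-kB genes, TLR1, a receptor for bacterial lipoproteins (512.89 and 762.77), NFKB1 (104.96 and 119.94) and MNDA did. CD86 was the 1 gene of 28 in antigen presentation. Of 85 genes named as interleukins or their receptors, IL5 (129.27 and 152.3, in a region nearer to RAD50) and IL1RAP (116.68 and 117.51) had one.

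No member lay at the ends of genes on 4 of the lists. These were 29 corepressors that work with GFI1 (interval up to 11.9%), 31 retinoid and promyelocytic leukemia genes (up to 11.2%), 32 lymphoid genes (up to 10.9%) and 24 liver and neuron genes (up to 14.2%). At the background share fewer than 1 gene would fall on any of them, so lists of this length cannot show a lack. A single gene stood on each of 5 others, with shares from 2.63% to 3.70% and the background of 2.31% inside each interval. SOX4, of 28 stem cell and HOX genes, scored 451.49 and 620.96 at 184 bp before its start. EED, of 33 chromatin, splicing and cohesin genes, encodes a Polycomb subunit and scored 177.93 and 256.98. TNFRSF10B, of 35 apoptosis and p53 genes, encodes a TRAIL receptor and scored 261.19 and 318. HBB, the beta-globin gene, of 27 erythroid and megakaryocytic genes, scored 85.74 and 132.47, and MCM3, a replicative helicase subunit gene, of 38 cell cycle genes, 74.06 and 55.25.

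Among families defined by name, those with general cell functions lay around the background. Of 88 ribosomal protein genes 5 had a member (5.68%, 1.87 to 12.8), led by RPL39 (242.46 and 254.63), RPL24 (126.73 and 187.93), RPL23A (163.3 and 115.84, in a region shared with RAB34, the 1 of 74 RAB GTPase genes) and RPL23 (67.83 and 65.23). Of 85 histone genes 4 did, H3C6 (148.61 and 126.22), H2BC4 (153.91 and 119.95), H4C2 (131.68 and 102.33) and H2AX (101.25 and 64.23). Histone genes have close copies, so reads there may be divided between them. Splicing and RNA-binding genes had 4 of 122, PRPF38B, HNRNPA2B1, DDX52 and HNRNPD. Translation factors had 2 of 70, EEF1A1 at its finish (288.21 and 143.99) and EIF2S3 (141.44 and 157.21). Mitochondrial ribosomal proteins had 2 of 77, MRPL57 and MRPL51, and respiratory chain subunits 2 of 105, NDUFA9 and ATP5F1E. Proteasome subunits had 1 of 50, PSMB1 (348.82 and 255.32), heat shock and DNAJ genes 1 of 72, DNAJB5, and aminoacyl-tRNA synthetases 1 of 35, SARS1 (359.36 and 418.66).

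Among membrane, ubiquitin and trafficking families, TMEM genes had 6 of 233, led by TMEM33 and TMEM243 (427.3 and 418.35). TRIM ubiquitin ligases had 2 of 77, both strong: TRIM38 (987.46 and 728.91) and TRIM26 (347.56 and 385.34). Ubiquitin-conjugating enzymes had 2 of 36, UBE2W and UBE2D1, and N-glycosylation genes 2 of 20, ALG14 and ALG1L2 (58.02 and 69.92). The shares were 2.58% for TMEM, 2.60% for TRIM, 5.56% for ubiquitin-conjugating and 10% for N-glycosylation genes. The interval of each included the background of 2.31%.

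Among 5 further families, olfactory receptor and ZNF genes had shares below the background. Olfactory receptor genes had 1 of 392 (0.255%, 0.00646 to 1.41), OR52W1 at its finish, and ZNF genes 3 of 517 (0.580%, 0.120 to 1.69), ZNF516, ZNF546 and ZNF114. Keratin genes had 0 of 149 (up to 2.45%) and protocadherins 0 of 66 (up to 5.44%). Solute carriers had 4 of 386 (1.04%, 0.283 to 2.63), among them SLC25A41, SLC18B1 and SLC2A12. The olfactory and ZNF intervals lay below the background of 2.31%, and those of keratins, protocadherins and solute carriers included it. Genes of 1 family often lie side by side and are not independent.

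**Figure D4:**
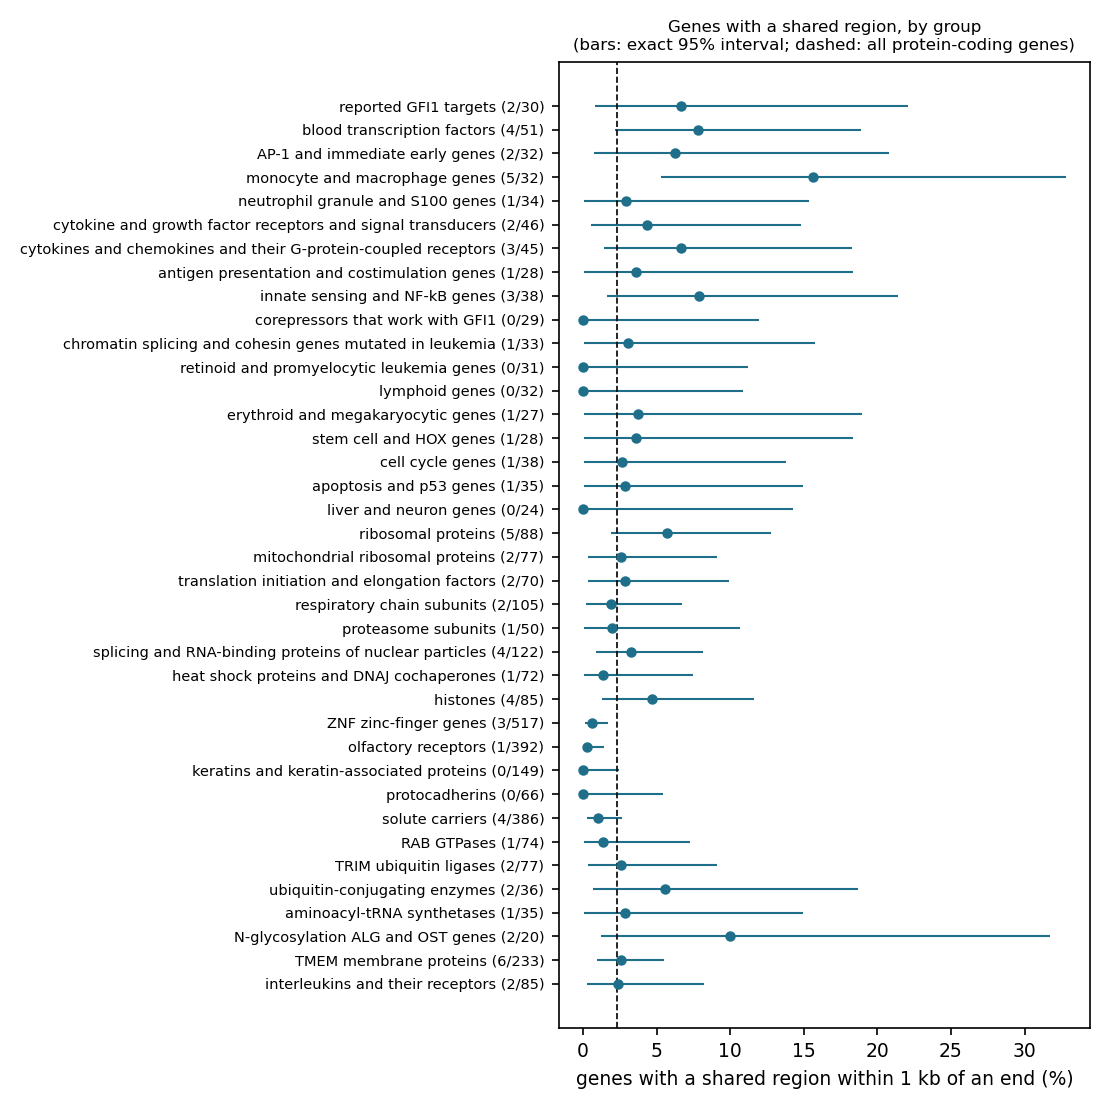
Percentage of the genes in each group that a shared region reached (x axis, within 1 kb of either end), with exact 95% intervals and, in parentheses, the count and size of the group; the dashed line is the 2.31% of all protein-coding genes. Of the groups plotted, which leave out 1 family and the list of GFI1 and its paralog, the monocyte and macrophage group is highest, at 15.6%, and its interval lies above the line. It is picked as the highest of groups chosen with earlier results of these data known, so this is a description.

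At the finish of genes, the best members by the worse of their ranks in the 2 lists were at CA6, a secreted carbonic anhydrase gene (chr1:8973626-8974615, 724.27 and 849.52), and KCTD12 (chr13:76879144-76880324, 705.27 and 714.42). NOP2, a ribosomal RNA methyltransferase gene (340.77 and 246.23), MYO1C, a myosin gene (266.61 and 214.67), and CD58, the ligand of CD2 (246.31 and 198.15), came next by that measure. These 5 were chosen after their values were seen. Members at finishes had median scores of 129 and 108, and those at starts 116 and 118, so the medians were similar. The upper quartiles were lower at finishes, 158 and 169, than at starts, 192 and 205, and the highest scores were at starts. The groups overlap, since 7 members had both a start and a finish.

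Near gene ends a larger share of ab21061 peaks was shared, which is what chose the members and is given as a description. Of 591 ab21061 peaks within 1 kb of an end 422 were overlapped (71.4%, 67.6 to 75.0), against 63.7% of all ab21061 peaks and 63.0% (61.9 to 64.2) of the 7096 farther away. The share was the higher one near ends in every class of score. Between scores of 50 and 60 the shares were 47.5% (38.2 to 56.9) and 30.6% (28.4 to 32.9). In each higher class the intervals of the 2 shares overlapped, for example 87.0% and 82.4% between 100 and 150. At 200 or more, 99 of 99 near ends and 943 of 945 elsewhere were overlapped.

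**Figure D5:**
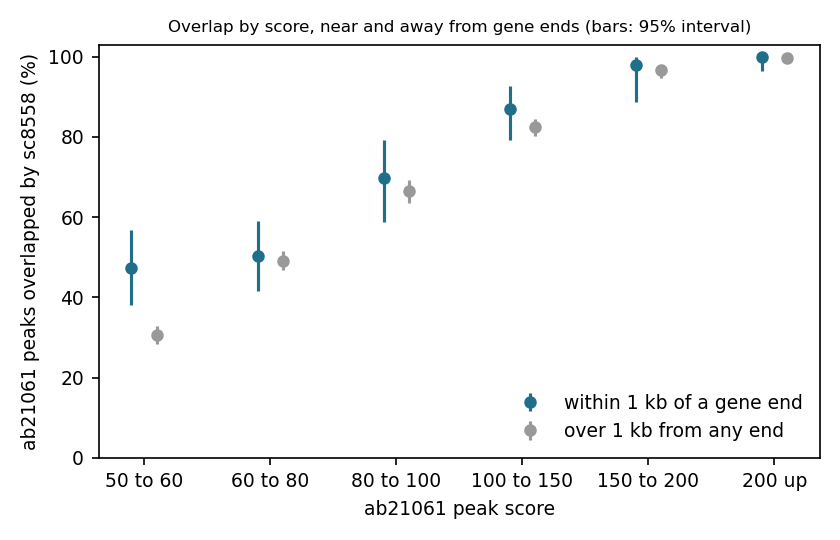
Percentage of ab21061 peaks overlapped by an sc8558 peak (y axis) in classes of ab21061 score (x axis), within 1 kb of a gene end and farther away, with exact 95% intervals. Apart from the class of 50 to 60, at 47.5% and 30.6%, the intervals overlap.

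Shared regions lay on both sides of the 1 kb limit. Shared peaks 750 to 1000 bp from an end had a median ab21061 score of 139, and those at 1000 to 1500 bp 98.7. In the other distance classes up to 10 kb the median ran from 106 to 113. Just inside lay regions at LAMC1 (998.5 bp, scores 142.39 and 75.45) and GSTA4 (999 bp, 81.12 and 108.12). Just outside lay regions at IFRD1 (1004.5 bp, 211.31 and 158.37), TCAIM (1009.5 bp, 153.41 and 117.92) and THADA (1012.5 bp, 119.25 and 174.77). The IFRD1 start also had a member, with its midpoint 550 bp away and scores of 80.53 and 132.84.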

How the data were processed

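Peaks were deposited as 1 list per library with a score per peak. Per the submitters' processing notes the authors used Bowtie2 2.2.9 and MACS 1.4.2 with hg38, and options, read filters and any control library were not given in the sources used here. Each deposited list had scores from 50.01 to 3100. Gene ends and types came from RefSeq (GRCh38.p14), and strand and promoter sequence from its promoter table. A promoter was used only where its start lay within 100 bp of the gene's outer end, a limit set after seeing the table, which left 13902 of 15843 genes. Each member was paired with its highest-scoring sc8558 peak. Overlaps and counts used Python 3.11.15 with pandas 2.3.3 and numpy 2.4.6, intervals scipy 1.17.1 and plots matplotlib 3.10.9. The counting steps were tested on simulated data.

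The members, the 19 symbol lists, 21 name families and 22 motifs were chosen with earlier results of these data known. Genes named were the 10 best by worse rank, 5 with the most unequal ranks in each direction (1 rank at least in the top 2000), list genes with a member, up to 4 for a family, and 3 regions on either side of 1 kb. Some genes and 1 family under these rules are not reported here. Others named were chosen after seeing values. Of the list symbols, 2 were not in the table. The promoters printed were 3 of the 8 that the rule allowed. Alternatives were other overlaps, scores, windows, gene types and the sc8558 list as the base.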

Additional observations from a re-analysis of the deposited data

How the results depend on the processing

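No paired analysis was possible because each antibody had 1 library, and no library could be left out. For the overlap share all alternatives, for the start share that of 50% overlap, and for the motif those of 50% overlap, other windows and windows wholly inside peaks were chosen after seeing the data. With 50% of both peaks overlapping there were 398 members, and with sc8558 peaks as the base 417. At scores of 100 or more in both lists there were 196 members at 218 of 20037 genes (1.09%), with 11 of the 561 list genes. Their median ab21061 score was 199.92 by construction, and 77.2% of ab21061 peaks near ends were overlapped. With 50% overlap that share was 67.3%. The share farther from ends is not given for these settings. The 63.0% above is for any overlap at all scores and is not their counterpart. Within 500 bp there were 242 members, 261 of 20037 genes and 12 of 561 list genes, and within 2.5 kb 704, 782 and 41. The list counts thus moved with the counts over all genes. Where the peak had to span the end there were 267 members and 292 genes, and with genes of all types 746 and 900. Genes of all types are a larger set than the 20037 protein-coding genes. Its total is not given here, so the 900 cannot be read as a share. The share of starts ran from 77.5% within 2.5 kb to 86.9% within 500 bp. The 9-letter GFI1 motif stood in 3.05% of promoters within 2.5 kb, 5.11% at scores of 100 or more and 6.83% within 500 bp, each above 1.11%. Over promoter windows of every annotated start, it stood in 8.86% of those wholly inside a member peak, against 1.00% of all such windows. Monocyte and macrophage genes with a member fell to 1 at scores of 100 or more (background 1.09%). Fewer or more peaks enter by construction in these settings, and no other cause was tested. Depth is unknown, so a gene without a member may have had a peak below the authors' threshold.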

Other observations

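Using every annotated start of protein-coding genes, 158 promoter windows of 300 bases lay wholly inside 134 member peaks, and 14 of them in 11 peaks held AATCACNGC (8.86%, 4.93 to 14.4), against 1.00% of 22078 windows. Inside other shared ab21061 peaks 3 of 51 windows did (5.88%, 1.23 to 16.2), inside ab21061 peaks without overlap 2 of 56 (3.57%, 0.435 to 12.3) and inside sc8558 peaks without overlap 1 of 56 (1.79%, 0.0452 to 9.55). The shorter AATCAC was in 22.2% of the windows in member peaks, 21.6% of those in other shared peaks and 21.4% of those in peaks of either antibody alone, against 8.89% of all windows. Shared and single-antibody peaks that covered a promoter thus held the shorter letters at like shares.

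All 6-letter words of the promoters were also counted, both strands together, without choosing any beforehand. Of 2046 words present in at least 2% of all promoters, AAATCA ranked 5, AATCAC ranked 6 and AAAATC ranked 9 by the ratio of shares where the start lay inside the member peak, at 2.45, 2.30 and 2.21. AAATCA was in 40 of these 174 promoters and AATCAC in 35. The 4 words ranked above them rest on 10 to 16 promoters each. Over all 283 promoters ATCGGA ranked 1, at 2.17, AAATCA ranked 8, at 1.88, and AATCAC ranked 13, at 1.74.

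The motifs were found along the range of scores, the 9-letter form first. With the promoters in 4 classes of about equal size, from the lowest to the highest ab21061 score, 1 of 71, 4 of 70, 4 of 71 and 5 of 71 promoters held it. Promoters with it had median scores of 151 and 166, and those without it 115 and 115. For the shorter AATCAC the medians were 132 and 113 with it and 113 and 116 without it, and the 4 classes held 9, 10, 15 and 9 promoters with it.

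In 7 members the sc8558 peak also met another ab21061 peak.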
